A study of Mus musculus with 7 samples.

Results

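Collagen chain genes encode the polypeptides that wind into collagen, the main structural protein of the extracellular matrix. They were taken by symbol, as every gene row named Col, a number, the letter a and a number, which gave 44 of the 49585 gene rows. Of these, 8 encode basement membrane collagens (the type IV chains Col4a1 to Col4a6 and the multiplexins Col15a1 and Col18a1), 11 encode fibrillar collagens and 25 encode other collagens. Total RNA was sequenced from MS-1, a mouse endothelial cell line, as 3 control libraries with the genotype WT and 4 libraries of cells overexpressing lipoprotein lipase (LPL), the enzyme that frees fatty acids from triglyceride in the bloodstream. Both groups were grown in DMEM. The labels give no vector-only control, no source or route of entry of the LPL sequence, and no number of clones. Nor do they say whether replicates came from separate cultures. The p-values therefore speak to library-to-library spread alone, and that spread may be technical.

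Collagen chains assemble in the endoplasmic reticulum into helical trimers, are modified by hydroxylases and chaperones on the way, and are secreted and cross-linked outside the cell. Type IV collagen forms the network of the basement membrane that endothelial cells lay down and rest on, with alpha1 and alpha2 chains as its common form. Fibrillar collagens build the fibres of connective tissue, where types I and III dominate and type V regulates fibre size. The other collagens coat fibres, form filaments or short-chain networks, or sit in the cell membrane.

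Counted reads ranged from 24328418 to 29210847 per library. Lpl had 8 reads over the 3 controls and 47212 over the 4 LPL overexpression libraries. Of 10 endothelial markers 9 were tested and 7 of these fell with LPL overexpression, against 21.3% of all genes tested. Cldn5 had 1 read in all. The endothelial markers summed to between 4168 and 4221 TPM (a library-scaled transcript level that allows for gene length) in the controls and between 3474 and 3584 TPM with LPL overexpression. All 11 pigment cell markers were higher with LPL overexpression, their sum lying between 2.75 and 2.83 TPM in the controls and between 2223 and 2345 TPM in the LPL overexpression libraries. Only 2 of the 11 reached the read level needed for testing in every control. The other 9 were tested only through the LPL overexpression libraries, so their passing had to go with a rise. Over all genes tested 21.9% rose. In bulk RNA, fewer cells of a type and less RNA per cell cannot be told apart. Fibroblast and mural cell markers, the usual sources of fibrillar collagen, summed to between 2.33 and 2.42 TPM in the controls and between 3.10 and 3.63 TPM with LPL overexpression. Of these 10 markers Dcn, Lum and Dpt had 0 reads in every library. Only 3 were tested. Pdgfra (309 control reads and 454 with LPL overexpression, edgeR adjusted p = 0.327) and Pdgfrb (137 and 214, edgeR adjusted p = 0.254) did not pass. Cspg4 rose, with 1 control read and 84 with LPL overexpression, and could pass only as a rise. Untested Acta2 went from 2 to 17 reads and Tagln from 4 to 12. Of the 5 Schwann cell markers 4 were tested and all 4 rose (from 1.49 to 1.98 TPM in sum up to 12.8 to 14.1 TPM). Among these 4, 3 could likewise pass only as rises. Of the 5 chondrocyte markers 2 were tested. Sox9, with 0 control reads, rose and could pass only as a rise. Comp, with 27 control reads and 36 with LPL overexpression, did not pass (edgeR adjusted p = 0.996). The 5 summed to at most 1.17 TPM in any library.

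MS-1 cells expressed mainly type IV collagen, and this held in both groups. Collagen chains together made up between 1443 and 1461 TPM in the controls and between 1414 and 1563 TPM with LPL overexpression. Col4a1 and Col4a2 supplied between 89.1% and 89.7% of that sum in the controls and between 85.0% and 86.2% with LPL overexpression. With Col5a1, Col8a1 and Col4a5 added, the same sum was covered to at least 97.8% in each of the 7 libraries. Basement membrane collagens summed to 1312 ± 9.14 TPM (SD, n = 3) in the controls and 1301 ± 63.4 TPM (SD, n = 4) with LPL overexpression. Fibrillar collagens summed to 83.5 ± 3.35 and 108 ± 3.92 TPM, and other collagens to 57.2 ± 0.827 and 80.8 ± 1.101 TPM. For both of the latter classes each LPL overexpression library exceeded each control, whereas the basement membrane sums overlapped. These sums are descriptions over chosen genes and were not tested.

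**Figure D1:**
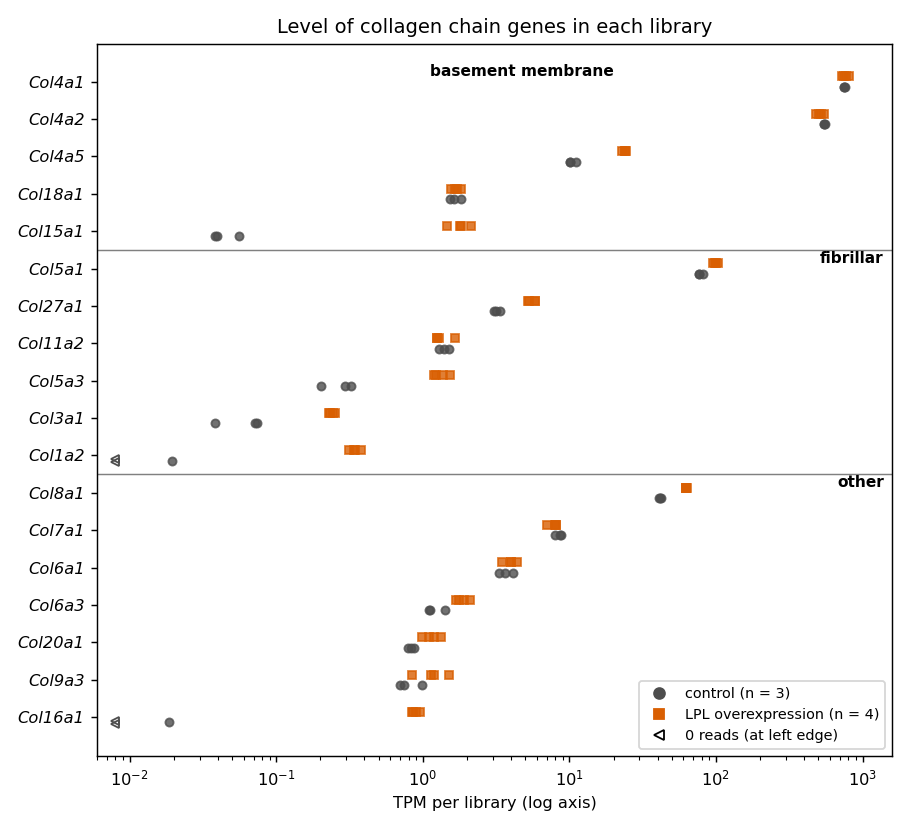
Level of the 18 collagen chain genes with a mean of at least 1 TPM in either group or a called change of at least 2-fold, in TPM per library on a log axis, by class, with 1 symbol per library and libraries with 0 reads at the left edge. Col4a1 and Col4a2 stand at 483 TPM or more in all 7 libraries, while Col15a1, Col1a2, Col3a1 and Col16a1 lie below 0.1 TPM in every control and above it in every LPL overexpression library.

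In the fit across all genes 21 of the 44 chain genes had enough reads to be tested. Of these, 11 rose, 3 fell and 7 did not pass (edgeR's quasi-likelihood test, adjusted p under 0.05 over 13639 genes). Over all genes tested, 43.2% passed, with 21.9% higher and 21.3% lower. The median log2 fold change of the tested chains was 0.44, against 0.00 over all genes. Among the tested chains 4 (Col15a1, Col1a2, Col3a1 and Col16a1) were below the filter level of 0.365 CPM (library-scaled counts) in at least 1 control and entered through the LPL overexpression libraries, so their passing had to go with a rise. Among the other 17 chains, 7 rose, 3 fell and 7 did not pass, with a median of 0.18, against 19.9% higher, 22.9% lower and 42.8% in either direction for the 12640 genes at that level in every control. Groups did not overlap for 13 of the 21 tested chains, against 44.6% of all genes. A called rise of at least 2-fold was found for 6 of the 21, against 4.53% of all genes, and for 2 of the 17, against 1.34%. Of all calls 50.7% were higher, a share that was 61.5% on log2(TPM + 0.5). The count of 3 lower chains depended on the setting, falling to 1 with DESeq2, without control replicate 3 or without LPL overexpression replicate 4, and to 0 on log2(TPM + 0.5).

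**Figure D2:**
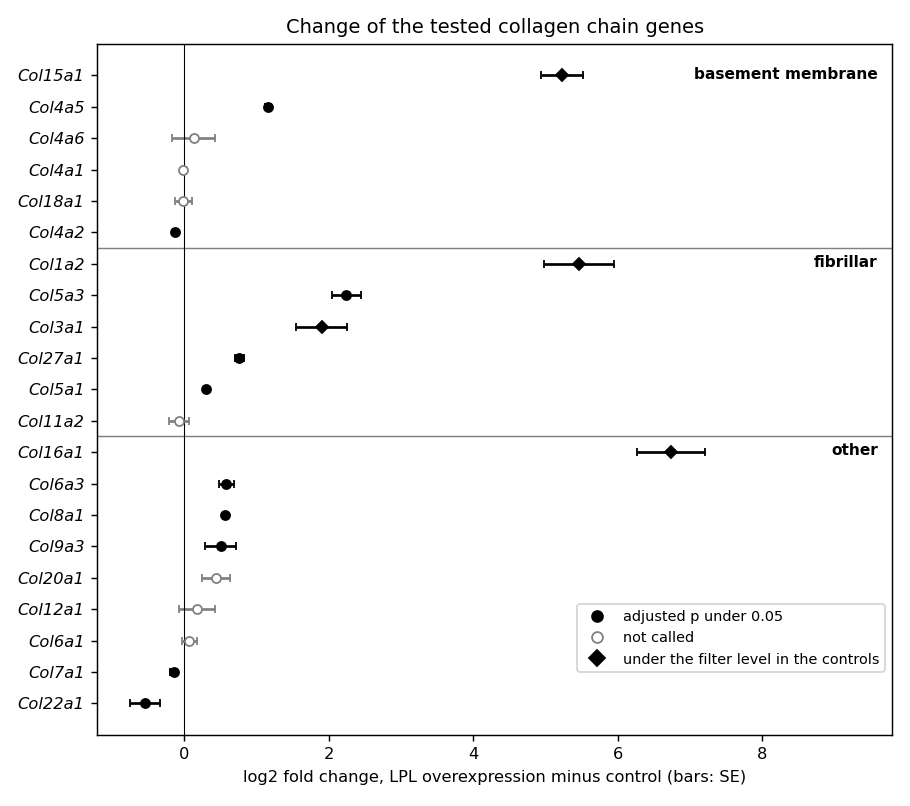
Log2 fold change of the 21 tested collagen chain genes, LPL overexpression minus control, with the standard error as bars, filled where the adjusted p was under 0.05, and as diamonds where a control was under the filter level. Fibrillar chains lie mostly to the right of 0 and Col4a1 and Col4a2 close to it. The fitted values of Col1a2 and Col16a1, which had 2 and 1 control reads, vary with the prior count of the fit.

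Among basement membrane collagens, 2 of 6 tested rose, 1 fell and 3 did not pass, against 21.9% higher and 21.3% lower over all genes. Without Col15a1, which was under the filter level in the controls and could pass only as a rise, 1 of 5 rose and 1 fell. Over genes at that level in every control, 19.9% rose and 22.9% fell. The type IV chains of the endothelial basement membrane stayed near their control level, and the rises were in Col4a5 and Col15a1. Col4a1 (ENSMUSG00000031502.11, chromosome 8, 11198423 to 11312826, minus strand, mm10) encodes the alpha1 chain. It stood at 749, 750.0 and 759 TPM in control replicates 1 to 3 and at 777, 719, 744 and 805 TPM in LPL overexpression replicates 1 to 4. The LPL overexpression libraries lay on both sides of the controls, and the log2 fold change was -0.01 (SE 0.03, edgeR adjusted p = 0.786). Col4a2 (ENSMUSG00000031503.13, chromosome 8, 11312805 to 11449287, plus strand), the alpha2 gene, had 547, 543 and 551 TPM in the controls and 521, 483, 504 and 542 TPM with LPL overexpression. All 4 libraries were below the controls, the fourth by a narrow margin, and the log2 fold change was -0.12 (SE 0.03, edgeR adjusted p = 2.66e-04). The call of Col4a2 ended on log2(TPM + 0.5) (limma adjusted p = 0.0533) and log2(TPM + 1) (0.054).

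The paired genes Col4a1 and Col4a2 point away from each other, and their annotated spans overlap by their first bases, with 21 bases between the starts. Reads were counted by orientation, and the forward orientation held 0.123% of the oriented reads of the chain genes. Within each library the ratio of Col4a1 to Col4a2 TPM, which does not depend on the scaling between libraries, was 1.37, 1.38 and 1.38 in the controls. It was 1.49, 1.49, 1.48 and 1.49 with LPL overexpression. The groups did not overlap in this ratio, and the mean went from 1.38 ± 0.00599 (SD, n = 3) to 1.49 ± 0.00652 (SD, n = 4). The share of Col4a2 in type IV TPM lay between 41.6% and 41.8% in the controls and between 39.4% and 39.6% with LPL overexpression. These within-library ratios and shares are given as descriptions, with no test.

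Col4a5 (ENSMUSG00000031274.16, chromosome X, 141475385 to 141689234, plus strand) encodes the alpha5 chain, which elsewhere joins alpha3 and alpha4 or alpha6 in specialised basement membranes. It had 11.1, 10.02 and 10.2 TPM in the controls and 24.4, 23.8, 22.9 and 24.0 TPM with LPL overexpression. Every LPL overexpression library was more than double every control, a log2 fold change of 1.16 (SE 0.04, edgeR adjusted p = 1.36e-28). Its share of type IV TPM went from 0.795% ± 0.0442 (SD, n = 3) to 1.83% ± 0.0815 (SD, n = 4). Its neighbour Col4a6 begins 1309 bases away on the opposite strand. Col4a6 stood at 0.207 ± 0.0444 TPM (SD, n = 3) and 0.230 ± 0.0552 TPM (SD, n = 4), with overlapping groups and a log2 fold change of 0.14 (SE 0.30, edgeR adjusted p = 0.747). The kidney chains Col4a3 and Col4a4 were not tested, Col4a3 with 1 control read and 3 LPL overexpression reads, and Col4a4 with 0 and 12.

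**Figure D3:**
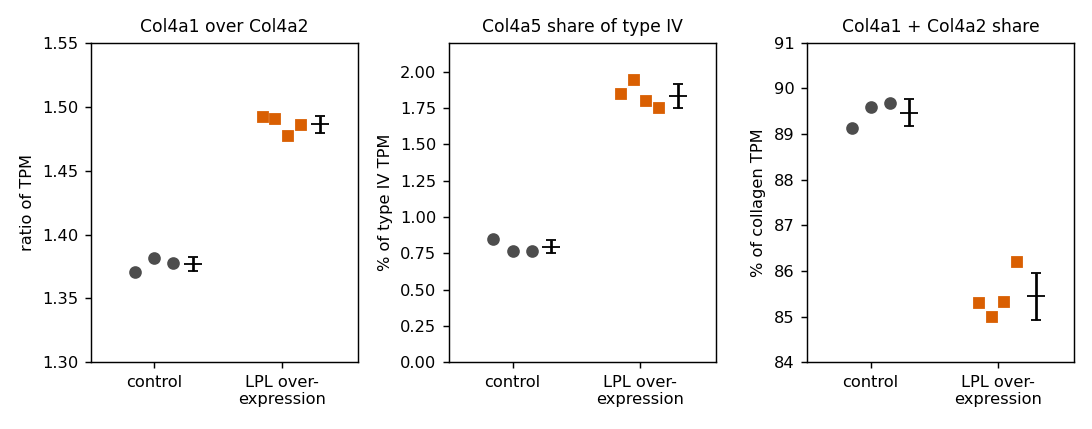
Chain composition within each library, with the mean and SD beside the points: the ratio of Col4a1 to Col4a2 TPM, the share of Col4a5 in type IV TPM, and the share of Col4a1 and Col4a2 in the TPM of all collagen chains (the left and right axes do not start at 0). The 3 controls and the 4 LPL overexpression libraries are apart in all 3 panels.

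The multiplexins, collagens with heparan or chondroitin sulfate chains in basement membrane zones, differed from each other. Col15a1 (ENSMUSG00000028339.17, chromosome 4, 47208161 to 47313167, plus strand) had 2, 3 and 2 reads in the controls and 100, 101, 70 and 96 with LPL overexpression. That was 0.0384, 0.0557 and 0.0392 TPM against 2.13, 1.78, 1.46 and 1.81 TPM, with no library of either group near the other group. The log2 fold change was 5.23 (SE 0.29, edgeR adjusted p = 1.68e-21). Col18a1 (ENSMUSG00000001435.14, chromosome 10), the precursor gene of endostatin, had 1.63, 1.83 and 1.54 TPM in the controls and 1.71, 1.66, 1.56 and 1.81 TPM with LPL overexpression. The values interleaved, and the log2 fold change was -0.01 (SE 0.12, edgeR adjusted p = 0.946).

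Of 6 fibrillar collagens tested, 5 rose and Col11a2 did not pass, where 21.9% of all genes tested rose. Col1a2 and Col3a1 were under the filter level in the controls and could pass only as rises. That leaves 3 higher of 4 in the fibrillar class, against 19.9% of genes at that level in every control. Col5a1 carried this class, with between 93.7% and 94.2% of its TPM in the controls and between 91.1% and 91.9% with LPL overexpression. Col5a1 (ENSMUSG00000026837.15, chromosome 2, 27886425 to 28039514, plus strand) encodes the alpha1 chain of type V collagen. Its level was 81.9, 76.7 and 76.6 TPM in the controls and 103, 94.8, 98.5 and 99.6 TPM with LPL overexpression. Every LPL overexpression library was above every control, by a log2 fold change of 0.31 (SE 0.03, edgeR adjusted p = 6.08e-14). Col5a3 (ENSMUSG00000004098.7, chromosome 9), the alpha3 chain gene, rose from 0.322, 0.294 and 0.201 TPM to 1.53, 1.23, 1.18 and 1.37 TPM, a log2 fold change of 2.24 (SE 0.20, edgeR adjusted p = 9.85e-14). Col27a1 (ENSMUSG00000045672.15, chromosome 4), a fibrillar collagen of cartilage, rose from 3.37, 3.17 and 3.04 TPM to 5.85, 5.78, 5.22 and 5.28 TPM, a log2 fold change of 0.77 (SE 0.06, edgeR adjusted p = 7.90e-16). Neither gene's groups overlapped. Col11a2 was at 1.40 ± 0.101 TPM (SD, n = 3) and 1.36 ± 0.199 TPM (SD, n = 4), did not pass (log2 fold change -0.07, SE 0.13) and had overlapping groups.

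The chains of types I and III, the bulk collagens of connective tissue, had few reads in MS-1 cells and stayed below 0.4 TPM in every library. Col1a2 (ENSMUSG00000029661.16, chromosome 6) had 2, 0 and 0 reads in the controls and 29, 42, 32 and 36 with LPL overexpression, where its level was 0.345 ± 0.0261 TPM (SD, n = 4). The ratio of pooled CPM was 52.3 (95% counting interval, exact, 14.2 to 436), and the edgeR adjusted p was 4.80e-14. Both control reads of Col1a2 were in control replicate 1, and without that library the fitted log2 fold change went from 5.47 to 8.12, values that vary with the prior count. Col3a1 (ENSMUSG00000026043.18, chromosome 1) rose from 6, 6 and 3 reads to 17, 22, 17 and 20, or from a mean of 0.0615 TPM to 0.240 TPM. The fitted log2 fold change of Col3a1 was 1.91 (SE 0.35, edgeR adjusted p = 1.07e-05), and its groups did not overlap. Col1a1, the partner of Col1a2 in type I collagen, had 5, 3 and 2 control reads and 14, 6, 11 and 10 with LPL overexpression, and was below the filter. Below it as well were Col2a1 with 11 control reads and 24 LPL overexpression reads, Col11a1 with 6 and 16, Col5a2 with 2 and 15, and Col24a1 with 1 and 2. All changes reported here, falls included, set the controls against the 4 libraries whose pigment cell markers summed to at least 2223 TPM. The part of other cells in these changes was not tested. This holds for abundant chains as for the rises of Col1a2, Col3a1, Col5a3 and Col15a1.

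Of 9 other collagens tested, 4 rose, 2 fell and 3 did not pass, against 21.9% higher and 21.3% lower over all genes. Without Col16a1, which was under the filter level in the controls, the other collagens gave 3 higher and 2 lower of 8. The shares over genes at that level in every control were 19.9% higher and 22.9% lower. Col8a1 (ENSMUSG00000068196.4, chromosome 16, 57624258 to 57754737, minus strand), the short-chain collagen of the subendothelial matrix, was the most abundant of them and supplied between 71.8% and 79.1% of the class in each library. It rose from 41.96, 41.1 and 41.3 TPM to 62.7, 62.2, 63.1 and 62.9 TPM. Within each group the libraries were within 1 TPM of each other, and the log2 fold change was 0.57 (SE 0.03, edgeR adjusted p = 2.55e-21). Col6a3 (ENSMUSG00000048126.16, chromosome 1), a type VI filament chain, rose from 1.099, 1.42 and 1.13 TPM to 1.77, 1.68, 1.91 and 2.09 TPM, a log2 fold change of 0.59 (SE 0.10, edgeR adjusted p = 3.63e-06) with groups that did not overlap. Col6a1, its partner chain, had 3.31, 3.63 and 4.10 TPM in the controls and 4.38, 3.99, 3.98 and 3.47 TPM with LPL overexpression, and its log2 fold change of 0.08 (SE 0.10) did not pass.

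Col16a1 (ENSMUSG00000040690.15, chromosome 4, 130047840 to 130099283, plus strand), encodes a fibril-associated collagen. It had 0, 0 and 1 reads in the controls and 45, 51, 44 and 54 with LPL overexpression, or 0.901, 0.847, 0.862 and 0.959 TPM. The ratio of pooled CPM was 146 (95% counting interval, exact, 25.9 to 5798), with an edgeR adjusted p of 1.54e-17. Without control replicate 3, which held the control read, the fitted log2 fold change of Col16a1 went from 6.73 to 8.61, values that vary with the prior count. Its added reads also fell in the libraries with the pigment cell markers, and their source was not tested. Col9a3 (ENSMUSG00000027570.15, chromosome 2), a type IX chain, stood at 0.980, 0.704 and 0.744 TPM in the controls and 1.19, 1.51, 1.13 and 0.840 TPM with LPL overexpression, with overlapping groups. Its log2 fold change was 0.51 (SE 0.21, edgeR adjusted p = 0.0492), and the call ended without control replicate 2 (0.181), control replicate 3 (0.134), or LPL overexpression replicate 1 (0.0748), 2 (0.232) or 3 (0.0585), with DESeq2 (0.234), without the filter on low counts (0.0657), and with limma on log2(TPM + 0.5) (0.0846) or log2(TPM + 1) (0.0866). Col20a1 (ENSMUSG00000016356.17, chromosome 2) had 0.871, 0.787 and 0.832 TPM and 1.32, 0.989, 1.103 and 1.20 TPM. Its groups did not overlap but its log2 fold change of 0.44 (SE 0.19) did not pass (edgeR adjusted p = 0.0620), and it passed without LPL overexpression replicate 2 (0.0389), with upper-quartile factors (0.0493) and with limma on log2(TPM + 0.5) (0.0293) or log2(TPM + 1) (0.0296).

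The remaining falls were small or near the threshold. Col7a1 (ENSMUSG00000025650.12, chromosome 9), which encodes the anchoring fibril collagen, had 8.81, 7.95 and 8.57 TPM in the controls and 8.14, 8.10, 7.93 and 7.01 TPM with LPL overexpression. The groups overlapped, and the log2 fold change was -0.14 (SE 0.05, edgeR adjusted p = 0.0203). The call of Col7a1 ended without control replicate 1 (0.114), control replicate 3 (0.0941) or LPL overexpression replicate 4 (0.186), with DESeq2 (0.122), and with limma on log2(TPM + 0.5) (0.243) or log2(TPM + 1) (0.239). Col22a1, a collagen of tissue junctions, averaged 0.462 TPM in the controls and 0.326 TPM with LPL overexpression. It had 32, 34 and 39 reads in the controls and 27, 24, 21 and 24 with LPL overexpression, for a log2 fold change of -0.54 (SE 0.21, edgeR adjusted p = 0.0318). Its call ended without control replicate 2 (0.0501), control replicate 3 (0.162), or LPL overexpression replicate 2 (0.0785), 3 (0.0652) or 4 (0.0606), with DESeq2 (0.195), without the filter on low counts (0.0583), and with limma on log2(TPM + 0.5) (0.101) or log2(TPM + 1) (0.121). Col12a1, a fibril-associated chain, stayed between 0.101 and 0.208 TPM in the 7 libraries and did not pass (log2 fold change 0.18, SE 0.25).

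Promoter sequences are shown for 4 chains that rose by different amounts, Col5a1 by 1.24-fold, Col8a1 by 1.49-fold, Col5a3 by 4.74-fold and Col15a1 by 37.5-fold. Each is the 250 bases before the RefSeq start on GRCm38.p6 (the mm10 assembly), written 5′ to 3′ on the gene's strand, from windows with no annotated exon. Capitals mark the motifs searched on both strands, the CCAAT box (CCAAT), the GC box (GGGCGG), the TATA box (TATAAA) and an E-box (CATGTG), none of which contains another.
Col5a1 (chr2:27886175-27886424, plus strand): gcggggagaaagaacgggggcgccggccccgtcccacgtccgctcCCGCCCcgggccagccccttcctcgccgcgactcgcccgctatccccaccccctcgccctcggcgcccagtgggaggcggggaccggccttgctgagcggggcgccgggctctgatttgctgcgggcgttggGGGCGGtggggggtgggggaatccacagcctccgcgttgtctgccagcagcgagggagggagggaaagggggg
Col8a1 (chr16:57754738-57754987, minus strand): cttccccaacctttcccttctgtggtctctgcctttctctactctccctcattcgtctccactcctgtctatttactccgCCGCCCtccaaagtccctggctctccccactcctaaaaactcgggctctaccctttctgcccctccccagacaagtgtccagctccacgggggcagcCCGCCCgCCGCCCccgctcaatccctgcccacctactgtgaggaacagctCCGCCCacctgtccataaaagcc
Col5a3 (chr9:20815068-20815317, minus strand): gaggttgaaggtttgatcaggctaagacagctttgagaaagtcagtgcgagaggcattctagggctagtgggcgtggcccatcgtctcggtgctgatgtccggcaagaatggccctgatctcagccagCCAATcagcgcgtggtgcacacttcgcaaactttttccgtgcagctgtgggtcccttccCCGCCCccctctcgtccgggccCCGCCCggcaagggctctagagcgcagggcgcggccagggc
Col15a1 (chr4:47207762-47208011, plus strand): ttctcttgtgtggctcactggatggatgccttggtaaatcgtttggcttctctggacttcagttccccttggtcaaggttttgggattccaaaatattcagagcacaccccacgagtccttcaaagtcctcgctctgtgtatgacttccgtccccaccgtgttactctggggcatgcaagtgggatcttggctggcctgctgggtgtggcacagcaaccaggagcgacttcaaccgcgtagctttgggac
The window of Col8a1 held 4 GC boxes, that of Col5a1 held 2, that of Col5a3 held 2 with 1 CCAAT box, and that of Col15a1 held none of the 4 motifs. GC content was 60.8%, 76.4%, 62.8% and 53.6% in the same order, against a median of 52.4% over all 32851 promoters of the RefSeq table. A GC box stood in 32.7% of all promoters and in 57.9% of the 38 promoters found for 35 chain genes. For the CCAAT box the shares were 33.8% and 34.2%, for the TATA box 12.4% and 13.2%, and for CATGTG 12.3% and 7.89%. A match describes the letters of the window only.

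Several collagen types that can assemble from different chains had at least 1 partner chain with few or no reads. For type V, Col5a1 was at 76.6 TPM or more in each library while Col5a2, which pairs with it in the common form, had 0, 0 and 2 reads in the controls and 3, 9, 2 and 1 with LPL overexpression. For type VI, whose alpha1, alpha2 and alpha3 chains normally assemble together, Col6a1 and Col6a3 were above 1 TPM in every library but Col6a2 had 2 reads in all, both in LPL overexpression replicate 2. For type VIII, Col8a2 had 1 read in all, in LPL overexpression replicate 1, beside Col8a1 at 41.1 TPM or more. Type IX showed another pattern, in which Col9a3 was detected in both groups while Col9a1 and Col9a2 had 0 control reads and 37 and 15 LPL overexpression reads.

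**Figure D4:**
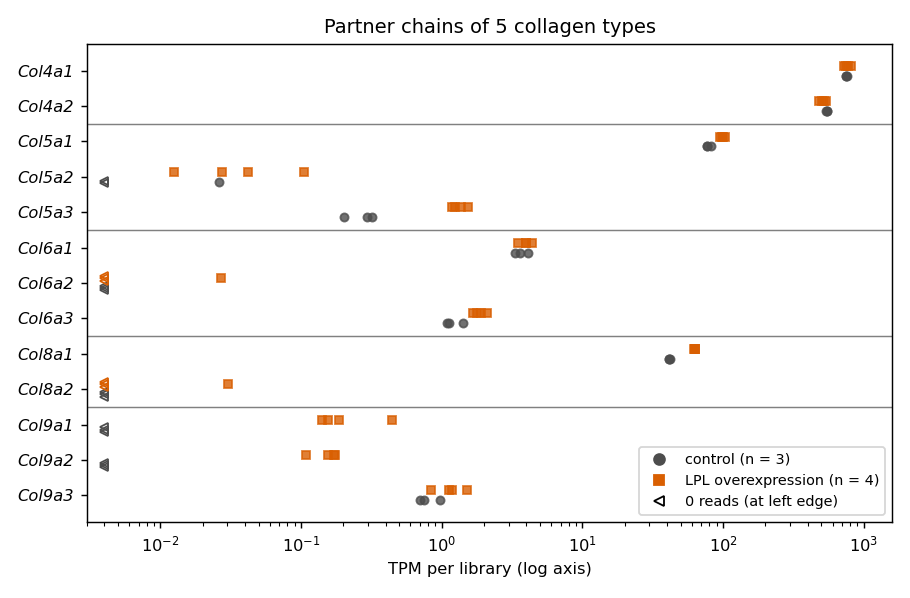
Partner chains of collagen types IV, V, VI, VIII and IX, in TPM per library on a log axis, with libraries of 0 reads at the left edge. Col4a1 and Col4a2 lie side by side, whereas Col5a2, Col6a2 and Col8a2 stay at or below 0.105 TPM in all 7 libraries.

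Of the 23 chain genes that were not tested, Col25a1, Col26a1, Col6a4 and Col6a6 had 0 reads in all libraries. The other 19 had between 1 and 51 reads over the 7 libraries. For a group with 0 reads the limit used was 3 counts summed over its libraries, which equals 0.0372 CPM for the controls and 0.0280 CPM for LPL overexpression. Set against that limit, the pooled LPL overexpression CPM of 5 chains with 0 control reads was higher. It was 9.29-fold higher for Col9a1, 4.02-fold for Col14a1, 3.76-fold for Col9a2, 3.01-fold for Col4a4 and 1.255-fold for Col10a1. Counting error of the LPL overexpression reads is not part of these folds. Col10a1 had 0 control reads and 2, 2, 1 and 0 with LPL overexpression. Col9a1 had 7, 7, 17 and 6 reads in the 4 LPL overexpression libraries, so that replicate 3 held the most. Without the filter on low counts, Col9a1, Col9a2, Col14a1, Col4a4 and Col1a1 passed in edgeR with adjusted p from 1.70e-08 to 0.00723, while Col5a2 (0.0519) and Col10a1 (0.137) did not. In that setting 3132 of 24468 genes were called higher and 2710 lower. With 0 control reads, Col9a1, Col9a2, Col14a1 and Col4a4 could pass only as rises. Col4a4 also had more forward reads (9 in the controls and 24 with LPL overexpression) than reads of its own orientation. The remaining untested chains had few reads in both groups, among them Col17a1 with 12 and 12, Col23a1 with 7 and 17, Col19a1 with 3 and 14, and Col28a1 with 2 and 5. Col6a5 had 2 and 0, and Col13a1 had 0 and 3. The counting intervals of Col1a2 and Col16a1 cover counting error only, and these limits cover that of the control reads only. Several reads may be copies of 1 molecule.

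Genes that modify and chaperone collagen inside the cell moved in both directions. Of 20 biosynthesis genes tested of 21, 8 rose, 2 fell and 10 did not pass, with a median log2 fold change of 0.07, where 21.9% of all genes tested rose and 21.3% fell. Of the 8 rises, P3h2 and P4ha3 were under the filter level in at least 1 control and needed LPL overexpression libraries to be tested. Without them the counts were 6 higher and 2 lower of 18, against 19.9% and 22.9% of genes at the filter level in every control. Serpinh1, which encodes the collagen chaperone HSP47, rose from 764, 738 and 779 TPM to 978, 933, 957 and 933 TPM, a log2 fold change of 0.30 (SE 0.03, edgeR adjusted p = 1.68e-14). P4hb, the beta subunit of prolyl 4-hydroxylase, rose from 1065 ± 15.8 TPM (SD, n = 3) to 1236 ± 11.1 TPM (SD, n = 4). Plod1, a lysyl hydroxylase gene, rose from 19.7 ± 0.287 to 25.3 ± 1.15 TPM, and P3h2, a prolyl 3-hydroxylase gene, from 0.402 ± 0.0941 to 1.85 ± 0.242 TPM. For these 4 genes every LPL overexpression library was above every control.

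Extracellular processing and cross-linking genes also split, with 4 higher, 5 lower and 3 not passing among 12 tested of 16, against 21.9% and 21.3% of all genes. Without Pcolce, which was under the filter level in the controls and could pass only as a rise, the counts were 3 higher and 5 lower of 11. Genes at that level in every control gave 19.9% higher and 22.9% lower. Pcolce, an enhancer of procollagen cleavage, went from 14 reads over the controls to 894 with LPL overexpression, or from 0.147 ± 0.0614 to 7.26 ± 0.416 TPM, a log2 fold change of 5.55 (SE 0.19). For Pcolce the value was 3.19 with reads of both orientations. Loxl3, a lysyl oxidase family gene, rose from 27.7 ± 0.635 to 35.9 ± 1.302 TPM, while Loxl4 fell from 48.3 ± 2.33 to 41.5 ± 2.23 TPM. Tgm2, a transglutaminase gene, fell from 57.0 ± 0.740 to 42.1 ± 0.751 TPM. Lox itself had 0 reads in every library.

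Among collagen receptors, 2 rose, 1 fell and 5 did not pass of 8 tested of 11, where 43.2% of all genes passed in either direction. Ddr2, a receptor kinase of fibrillar collagen, rose from 0.828, 0.878 and 0.874 TPM to 5.12, 5.19, 5.55 and 5.25 TPM, a log2 fold change of 2.59 (SE 0.09, edgeR adjusted p = 5.34e-30). Ddr1, its relative, rose from 14.3 ± 0.259 to 22.1 ± 0.761 TPM. Itgb1, the beta subunit of the collagen-binding integrins, fell from 794 ± 10.5 to 722 ± 20.4 TPM. The rises of Pcolce and Ddr2 were in the same 4 libraries as the pigment cell markers, and their source was not tested.

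Turnover genes and basement membrane partners gave counts of 2 higher and 3 lower of 7 tested, and 3 higher and 4 lower of 9 tested, against 21.9% higher and 21.3% lower over all genes. Mmp3, a matrix metalloproteinase gene, fell from 6.58 ± 0.670 to 3.19 ± 0.535 TPM, and Timp1, an inhibitor of these proteases, from 251 ± 1.34 to 206 ± 2.61 TPM. Mmp15 rose from 1.66 ± 0.115 to 3.37 ± 0.163 TPM and Mmp2, a gelatinase gene, from 8.23 ± 0.606 to 11.8 ± 1.07 TPM. Nid1, the gene of nidogen, which links laminin to type IV collagen, rose from 242 ± 7.78 to 360 ± 8.08 TPM, a log2 fold change of 0.55 (SE 0.03). Agrn, a heparan sulfate proteoglycan gene, rose from 3.47 ± 0.273 to 6.78 ± 0.504 TPM. The 4 falls among the basement membrane partners were all in laminin chain genes. Lama4 fell from 34.9 ± 0.766 to 26.7 ± 0.697 TPM and Lamc1 from 349 ± 1.41 to 308 ± 14.1 TPM. For each of these 8 genes the groups did not overlap (SD, n = 3 controls and n = 4 LPL overexpression libraries). Lama5 fell as well, from a mean of 102 to 77.8 TPM, and Lamb1 from 31.1 to 28.7 TPM, while Lamb2 did not pass. Over the 5 lists pooled, 34 of 56 tested genes passed, 19 higher and 15 lower, against 43.2% of all genes. Among the 53 at the filter level in every control 31 passed, 16 higher and 15 lower, against 42.8%.

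**Figure D5:**
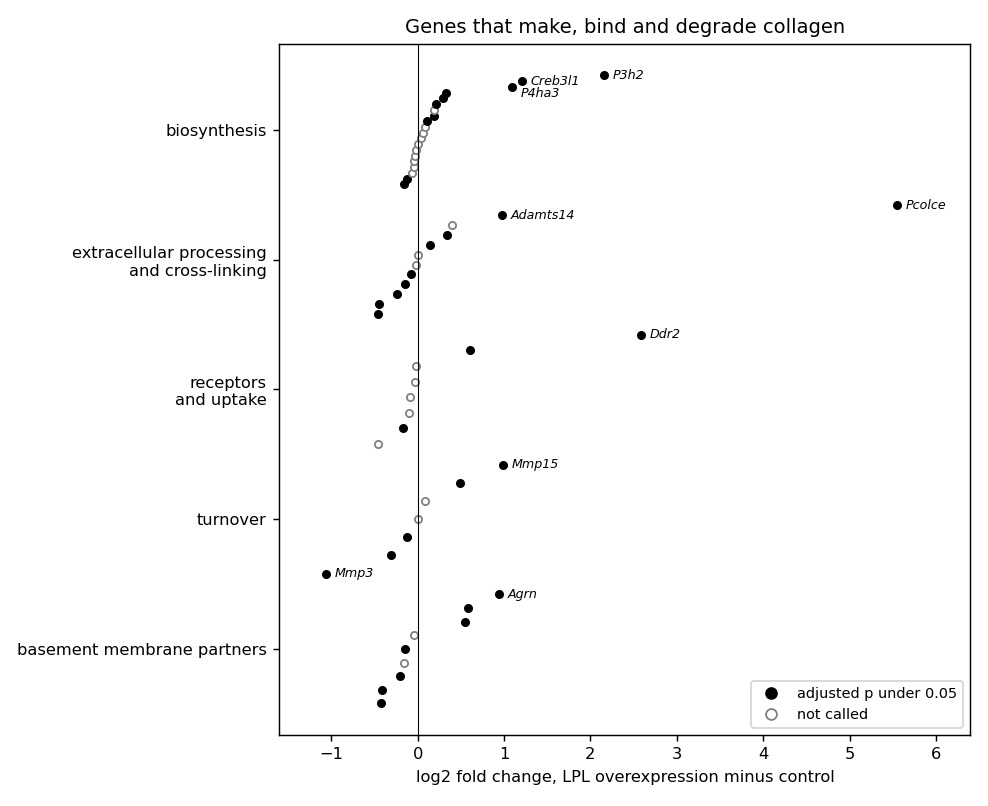
Log2 fold change, LPL overexpression minus control, of the 56 tested genes that make, bind and degrade collagen or are basement membrane partners, by list. Points are filled where the adjusted p was under 0.05, with names at changes beyond 0.9. Most points lie within 0.5 of 0 in both directions, with Pcolce, Ddr2 and P3h2 farthest to the right.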

How the data were processed

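The 3 control and 4 LPL overexpression libraries of MS-1 cells were made with a Qiagen RNeasy kit and a TruSeq kit that keeps strand, per the labels' protocols. Reads were aligned with STAR to mm10, per the submitters' processing notes, and the sources used here name no version or annotation. The name of the deposited tables gives featureCounts as the counter. The deposited counts are whole reads per gene, not normalized, given for both orientations together and for each alone, per the file headers. The deposited TPM values used here are scaled to exonic length and sum to 1000000 over all genes of a library. Groups and replicate numbers came from the titles. Reverse-orientation reads, the sense orientation of the kit and at least 97.0% of oriented reads, were tested with edgeR 4.0.16 in R 4.3.3 (TMM factors, filterByExpr with a minimum of 10 counts, robust quasi-likelihood fit, group as the only term), with Benjamini-Hochberg adjustment over all 13639 genes and a threshold of 0.05. Standard errors are the size of the log2 fold change divided by the root of F. Non-overlap was judged on TMM-scaled CPM. DESeq2 1.42.0, limma 3.58.1 and the other settings are compared in the closing section.

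Chain classes, 5 pathway lists and the marker lists were chosen with earlier results of these data known. Chains with a mean of at least 1 TPM in either group or a called 2-fold change are given in every library, other tested chains by group means or range and untested ones by reads, and pathway lists by the 4 called genes with the lowest adjusted p. Lox, P4ha3, Lama5, Lamb1, Lamb2 and single markers outside this rule were named after their values were seen. Mia2, whose symbol is on 2 rows, was left out of the biosynthesis list. All 44 chain genes were found in GENCODE M21 as protein coding, 43 with the same span. Promoters came from the RefSeq table of GRCm38.p6. No 2 libraries agreed within counting noise (chi-square per degree of freedom at least 1.65 within groups). The edgeR fit was run first on simulated counts with known changes. It recovered 29.2% of 1.1-fold changes, 77.1% of 1.25-fold, 81.2% of 1.5-fold and 91.7% of 2-fold changes, with 48 genes tested per size. Unchanged genes made up 6.94% of its calls. The simulation changed far fewer genes than were called in these data.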

Additional observations from a re-analysis of the deposited data

Results flagged for a closer look

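Col11a2 stood apart in LPL overexpression replicate 1, at 1.66 TPM against 1.246 to 1.296 TPM in the other LPL overexpression libraries, a gap of 0.879 of the group's range. With 21 chain genes examined in this way, chance alone marks about 1 in 20 groups.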

How the results depend on the processing

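Of 350 values of the tested chain genes under the alternatives, 303 kept their direction and side of the threshold, 28 lost the call, 4 gained it and 15 changed sign, all 15 in chains that had not passed. Col4a5, Col15a1, Col5a1, Col5a3, Col27a1, Col1a2, Col3a1, Col8a1, Col6a3 and Col16a1 kept their call under each alternative that tested them. The 19 pathway genes named for their lowest adjusted p did so as well. The chains called higher numbered 10 to 15 over the other settings and 7 among genes at the filter level in every control, a setting chosen after seeing the data; its smaller set of genes accounts for the fall. The chains called lower numbered 1 to 3 when 1 library was left out (1 without control replicate 3 or LPL overexpression replicate 4), 1 with DESeq2, 1 with the replicate block, and 0 with limma on log2(TPM + 0.5) or log2(TPM + 1), where 2 and 1 were lower at an unadjusted p under 0.05; the cause was not tested. The block is only a shared number, since deviations of same-numbered libraries correlated between -0.045 and 0.007, and with it 11 chains were called higher and the calls of Col7a1 (adjusted p = 0.168) and Col22a1 (0.0661) ended. On log2(TPM + 0.5), which understates changes of low genes, the log2 fold changes were 2.07 for Col15a1, 1.46 for Col16a1, 1.24 for Col5a3, 0.74 for Col1a2 and 0.40 for Col3a1. Of all genes called, 50.7% were higher, and 61.5% on log2(TPM + 0.5). TPM of both orientations gave a basement membrane sum of 1329 TPM in the controls, and sums of other collagens of 58.5 TPM in the controls and 82.7 TPM with LPL overexpression. Sign changes were small: Col4a1 was at 0.0114 with upper-quartile factors, at 0.015 on both TPM scales, and between -0.0321 and 0.0181 when 1 library was left out; Col18a1 was at 0.0106, 0.013 and 0.0104 in these 3 settings, and between -0.056 and 0.063 when 1 library was left out. With 1 library left out Col4a6 ranged from -0.0491 to 0.2452, Col6a1 from -0.0006 to 0.1659 and Col12a1 from -0.0467 to 0.4699 (log2 fold changes). Depth limits the chains with few reads, of which 23 were not tested.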

Other observations

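Reads in the forward orientation, opposite to the gene, outnumbered a chain gene's own reads most clearly for the neighbours Col4a3 and Col4a4, which start 72 bases apart on opposite strands. Col4a4 had 33 forward reads (9 in the controls and 24 with LPL overexpression) against 12 in its own orientation. Col4a3 had 15 forward reads (6 and 9) against 4. Col18a1 had 40 forward reads (17 and 23) beside 672 in its own orientation.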
